A study of Mus musculus with 96 samples.

Results

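Bone marrow-derived macrophages given Baflo and then lipopolysaccharide (LPS) were compared with macrophages given the vehicle DMSO and then LPS. Libraries were chosen by their labelled names alone, with no measured value: 8 Baflo and 8 DMSO libraries, 16 of the 96 in the series. Each group held 4 wells, lettered E to H, on each of 2 plates. The label Baflo is not spelled out and no dose is given in the sources used here, so the compound keeps its label and no structure or target is assumed for it. The cells were wild-type macrophages grown from the marrow of male C57BL/6 mice aged 8 weeks, in conditioned medium that contained the growth factor MCSF. Each compound was added 30 min before LPS, and cells were lysed after 4 h of LPS. The NoStim group, wells A to D with 8 libraries, received no LPS and has no stated vehicle. The group labelled ZVAD, another 8 libraries with LPS, served as a further comparison, and no group received Baflo without LPS. The labels do not say that wells came from separate cultures or animals, so all p-values measure the spread between wells, which may be technical.

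LPS, a component of the outer membrane of Gram-negative bacteria, is sensed by macrophages through Toll-like receptor 4. One branch of this pathway drives NF-κB and the genes of cytokines and chemokines. Another drives interferon-β, whose receptor then turns on the antiviral interferon response genes. Macrophages also carry a large lysosomal system, acidified by the vacuolar proton pump (V-ATPase), in which engulfed material and the cargo of autophagy are broken down.

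The table held counts for 23481 gene symbols, and 4963 genes passed the filter on low counts. The filter took the 96 libraries of all 12 groups together, so a gene could pass through its level in other groups. Total counts over the 96 libraries ranged from 80196 to 379198. Baflo libraries held 282912 ± 49086.6 counts (SD, n = 8) and DMSO libraries 265242 ± 35083.9 (exact permutation test, two-sided, p = 0.435, adjusted p = 0.652 over 3 measures). Genes with a count numbered 9417 ± 295 in Baflo and 9353 ± 277 with DMSO (p = 0.660 by the same exact test). Rn45s, the ribosomal RNA precursor, took 16.8% ± 5.02 of Baflo counts and 19.4% ± 4.64 of DMSO counts (exact permutation p = 0.307, adjusted 0.652). None of these measures differed beyond the spread between libraries. The permutation over all 16 libraries did not keep the plates apart. Within plate 1 alone the exact permutation p of the Rn45s share was 0.857, and within plate 2 alone 0.257. Macrophage genes were abundant in both groups: Lyz1, which encodes lysozyme, averaged 1116 counts per 1000000 (CPM, after TMM scaling of the library totals) with Baflo and 1076 with DMSO, and Csf1r, the MCSF receptor, 475 and 526. Markers of T, B, mast, erythroid, neutrophil, fibroblast and dendritic cells numbered 42, and 0 of them passed the filter on low counts. Erythroid markers had 0 counts in all 16 libraries, and so did the defining genes Cd3e, Mpo and Col3a1. Other T and NK cell, neutrophil and fibroblast markers had some counts. Summed over the list, T and NK cell markers had a median of 4.96 CPM in Baflo libraries (highest 24.4) and 4.03 in DMSO libraries (highest 14.2). Neutrophil markers had a median of 1.45 CPM in Baflo libraries (highest 6.11) and 4.21 in DMSO libraries (highest 14.2). Fibroblast markers had a median of 0 in both groups and reached 11.6 CPM in a DMSO library. Among the dendritic markers Xcr1 gave 34 counts over the Baflo and 52 over the DMSO libraries, and Flt3 gave 1 and 0.

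No gene passed the test between Baflo and DMSO. With edgeR's quasi-likelihood test, 0 of 4963 genes had a Benjamini-Hochberg adjusted p under 0.05, which is 0% of the genes tested, and the smallest adjusted p was 0.208. At an unadjusted p under 0.05, 373 genes stood out, 195 of them higher in Baflo (3.93% of genes) and 178 lower (3.59%). DESeq2 called 2 genes, Spp1 among them, and limma-voom called 0. From percentile 5 to percentile 95 of the genes, log2 fold changes ran from -0.50 to 0.44, with a median of 0.00. The point estimate exceeded 1.5-fold for 234 genes and 2-fold for 20. In such bulk libraries, fewer cells expressing a gene and less of its RNA per cell cannot be told apart.

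The same fit gives the size of change that the data exclude. A 2-fold change in either direction lay outside the 95% interval for 4189 genes, 84.4% of those tested, and a 1.5-fold change for 1773 genes, 35.7%. A 4-fold change lay outside the interval for 4945 genes, 99.6%, and was within reach for 18. A pair of one-sided tests with adjustment over all genes excluded 1.5-fold for 1410 genes, 2-fold for 4416 and 4-fold for 4950. The limit followed the level of the gene. Below 50 CPM, where 2373 genes lay, the median interval reached 1.54-fold to each side of its estimate. It reached 1.35-fold from 50 to 100 CPM (1167 genes), 1.26-fold from 100 to 300 CPM (972 genes), 1.19-fold from 300 to 1000 CPM (373 genes) and 1.17-fold from 1000 CPM upwards (78 genes). All 451 genes at 300 CPM or more had intervals inside 2-fold, so a 2-fold change in an abundant transcript was outside what the libraries allow. For 774 genes, 703 of them below 50 CPM, the interval reached past 2-fold, so a change of that size was not excluded.

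**Figure D1:**
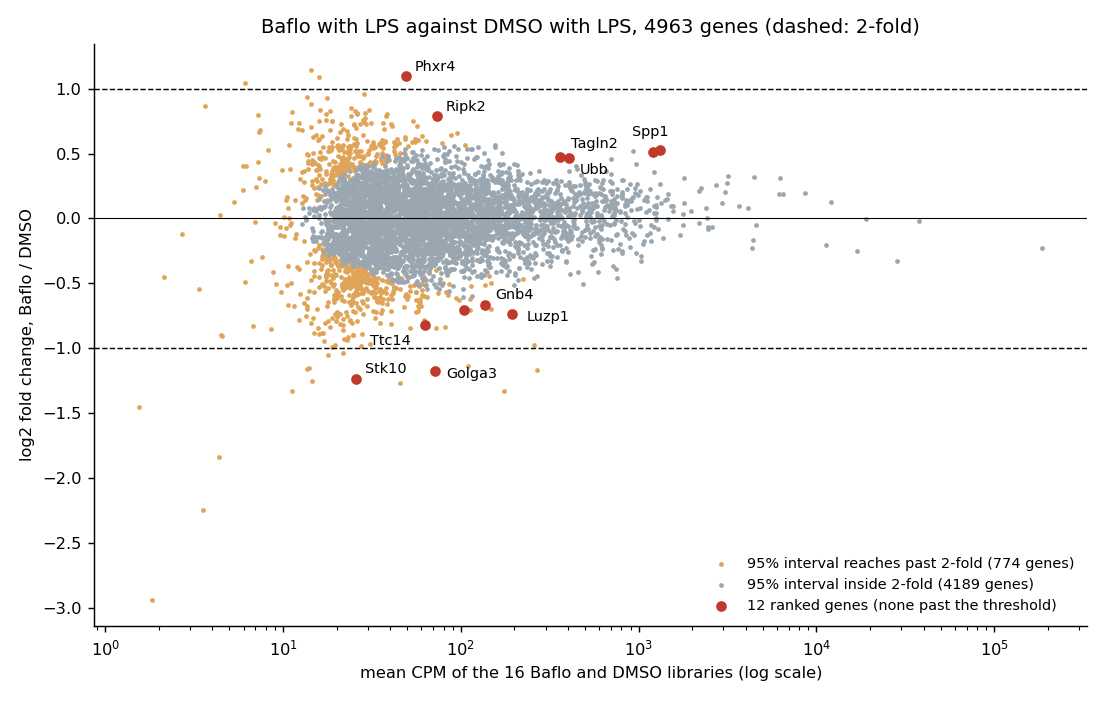
Log2 fold change of Baflo with LPS over DMSO with LPS (vertical axis) against the mean CPM of the 16 libraries (horizontal axis, log scale), 1 point per gene for 4963 genes. Grey points are the 4189 genes whose 95% interval lies inside 2-fold, orange points the 774 whose interval reaches past it, and red points the 12 genes ranked first by unadjusted p, none of which passed the threshold.

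Differences seen on 1 plate were weakly related to those on the other. Fold changes on plate 1 and on plate 2, computed from separate libraries, had a Pearson correlation of 0.08 and a Spearman correlation of 0.14. These cover 4963 genes, which are not independent replicates. The labels do not say whether wells of the same letter on the 2 plates held separate lysates. Deviations of such wells from their group and plate means correlated at 0.07 to 0.33 over 4 DMSO pairs. Over 4 Baflo pairs they correlated at -0.19 to 0.34. The sign was the same on both plates for 2800 genes, 56.4%. On plate 1 alone 404 genes had an unadjusted p under 0.05 and on plate 2 alone 185. Both plates gave such a p with the same sign for 16 genes and with opposite signs for 5. Each plate alone gave 0 genes past the adjusted threshold in edgeR, with smallest adjusted p of 0.295 and 0.657. The test of a different Baflo effect on the 2 plates gave 0 genes as well (edgeR interaction term, smallest adjusted p = 0.553, 205 genes at an unadjusted p under 0.05).

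The genes ranked first by unadjusted p are given as ranked, not as changed. Highest among those above DMSO stood Phxr4, a gene model of the TEC class inside Maml2 (mm10, chromosome 9, 13431361 to 13432751, same strand as Maml2, whose reads cannot be told from its own). Its level in Baflo libraries was 56.8 CPM at the lowest, 64.5 at the median and 83.7 at the highest, against 21.2, 30.3 and 43.4 in DMSO libraries. The 2 groups did not overlap, at a log2 fold change of 1.09 ± 0.28 (SE; edgeR adjusted p = 0.208). Only 3 genes, Phxr4, Ccl2 and Dedd, were higher in all 8 Baflo libraries than in all 8 DMSO libraries, 0.0604% of those tested, and 0 genes, 0%, were lower in all.

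Spp1, which encodes the secreted phosphoprotein osteopontin (chromosome 5, 104435118 to 104441050), ranged from 1041 to 2049 CPM in Baflo libraries with a median of 1340. In DMSO libraries it ranged from 846 to 1147 CPM with a median of 978. Most Baflo libraries lay above the DMSO range and 2 of 8, both on plate 2, lay within it. Its log2 fold change was 0.51 ± 0.13 (edgeR adjusted p = 0.208), 0.64 on plate 1 and 0.40 on plate 2, and its 95% interval ran from 1.19-fold to 1.70-fold.

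Tagln2, an actin-binding transgelin, had a median of 412 CPM in Baflo libraries (342 to 501) and 308 in DMSO libraries (213 to 351). The groups overlapped by 1 Baflo library, with a log2 fold change of 0.48 ± 0.13. Ripk2, the kinase that carries signals from NOD receptors, had a median of 90.9 CPM (75.4 to 127) against 51.1 (26.6 to 89.8), a log2 fold change of 0.79 ± 0.22. Ubb, a polyubiquitin gene with near-identical relatives, had a median of 500 CPM (297 to 559) against 333 (282 to 446), a log2 fold change of 0.46 ± 0.13. For Ripk2 and Ubb the ranges of the groups overlapped.

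Among genes ranked first on the lower side, Luzp1, which encodes a cytoskeleton-associated leucine zipper protein, had a median of 143 CPM in Baflo libraries (82.4 to 222) and 207 in DMSO libraries (126 to 418). The log2 fold change of Luzp1 was -0.73 ± 0.18, and Kdm1a overlaps it on the other strand. Ttc14, a tetratricopeptide repeat gene overlapped on the other strand by Ccdc39, had a log2 fold change of -0.82 ± 0.22. For Gnb4, a G protein β subunit, it was -0.67 ± 0.19, for the kinase gene Stk10 -1.23 ± 0.35 and for Golga3, a golgin of the Golgi membrane, -1.17 ± 0.33. All 12 ranked genes had adjusted p between 0.208 and 0.249 in edgeR, and every group pair but that of Phxr4 overlapped.

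Which single genes passed depended on the fit, the filter and the tool. A fit of the Baflo and DMSO libraries alone, in place of all 96, called 8 genes in edgeR: Ccl2, Ccl7, Spp1, Phxr4 and Tagln2 higher, and Chd4, Cd2ap and Trak1 lower. For Ccl2 the standard error of the log2 fold change was 0.09 in that fit and 0.16 in the fit of all groups. Adding plate and well letter as a block to the 16-library fit called 23 genes, 15 higher and 8 lower, including all 8 of those. Testing genes with no filter on low counts called 3, Spp1 and Luzp1 among them. Spp1 was called in all 4 of the settings that called any gene, counting DESeq2, and no other gene was called in more than 2.

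**Figure D2:**
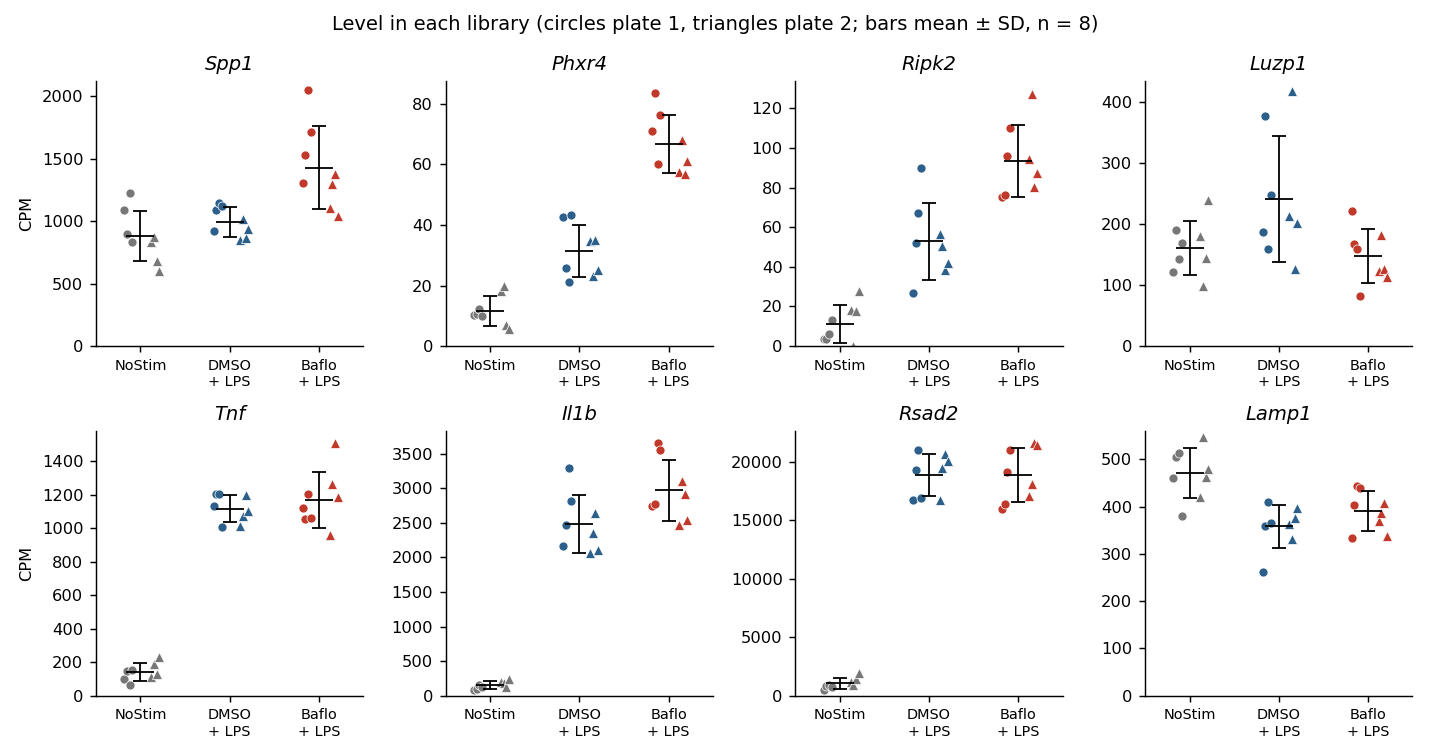
CPM in each library (points; circles plate 1, triangles plate 2) with mean ± SD (bars, n = 8) for NoStim, DMSO with LPS and Baflo with LPS. The top row shows 4 ranked genes, of which Phxr4 alone has no overlap between Baflo and DMSO; the bottom row shows Tnf, Il1b, Rsad2 and Lamp1, where the Baflo and DMSO ranges overlap.

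Inflammatory genes lay slightly to the higher side after Baflo, none past the threshold in the fit of all groups. Of 45 listed cytokine, chemokine and NF-κB pathway genes 42 were tested, and 0 passed in either direction in edgeR. At an unadjusted p under 0.05, 10 were higher and 1, Ier3, lower, 26.2% of the list, where 7.52% of all tested genes had such a p. The median log2 fold change of the list was 0.20, with 31 of 42 members above 0, against 0.00 over all genes. These backgrounds were not matched for level, and abundant genes had such a p more often. From 300 to 1000 CPM, 34 of 373 genes were higher and 14 lower at such a p, with a median log2 fold change of 0.05. From 1000 CPM upwards, 13 of 78 genes were higher and 1 lower, with a median of 0.07. The mean log2 level of the list was 8.38 ± 0.11 (SD, n = 8; range 8.23 to 8.55) in Baflo libraries and 8.23 ± 0.09 (8.11 to 8.35) in DMSO libraries, so the groups overlapped. Of the 8 pairs of wells with the same plate and letter, Baflo was higher in 8, but the letters were not taken to pair wells. With plate and letter as a block, edgeR called 5 list members higher: Ccl2, Ccl7, Ccl4, Cxcl2 and Ccl3. Over all 4963 tested genes that fit called 15 higher and 8 lower, members of other lists among them. A 2-fold change was outside the interval of 39 members of the inflammatory list, all but Il23a, Cxcl3 and Ccl22. Mean log2 levels of other lists also differed between Baflo and DMSO libraries. They were 9.18 ± 0.17 against 9.04 ± 0.13 for ribosomal protein genes and 7.47 ± 0.30 against 7.32 ± 0.25 for iron handling genes. For unfolded protein response genes the level was lower with Baflo, 6.01 ± 0.23 against 6.19 ± 0.08.

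The chemokine genes held the largest differences of the list. Ccl2, the monocyte attractant (chromosome 11, 82035571 to 82037453, with Gm17268 on the other strand), ranged from 919 to 1347 CPM in Baflo libraries with a median of 1082. In DMSO libraries it ranged from 677 to 886 CPM with a median of 731, with no overlap. The difference in Ccl2 was 0.52 ± 0.16 on the log2 scale (edgeR adjusted p = 0.406), 0.53 on each plate. Ccl7, its neighbour on the chromosome and another monocyte attractant, had a median of 802 CPM (621 to 977) against 599 (463 to 673), a log2 fold change of 0.46 ± 0.16. The neutrophil attractants Cxcl3 and Cxcl1 had log2 fold changes of 0.71 ± 0.23 and 0.55 ± 0.19, with medians of 73.2 against 38.9 CPM and of 173 against 129 CPM. Ccl22, Ccl4 and Ccl3, which encode attractants of lymphocytes and monocytes, stood at 0.73 ± 0.28, 0.31 ± 0.12 and 0.32 ± 0.15. Apart from Ccl2, each of these had overlapping groups.

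Limits on cytokine genes varied with their level. Tnf, a first-line NF-κB target, ranged from 957 to 1510 CPM in Baflo (median 1153) and from 1006 to 1204 in DMSO libraries (median 1120). The DMSO range lay within the Baflo range, at a log2 fold change of 0.06 ± 0.12, and the interval ran from 0.88-fold to 1.24-fold. Il1b, the interleukin-1β precursor, ranged from 2465 to 3651 CPM in Baflo (median 2837) and from 2060 to 3297 in DMSO libraries (median 2414). The log2 fold change of Il1b was 0.25 ± 0.13 (edgeR adjusted p = 0.658), with an upper bound of 1.42-fold, and the groups overlapped. Il12b, the shared subunit of interleukins 12 and 23, stood at 0.27 ± 0.15 (0.98-fold to 1.49-fold). Il6 stood at -0.10 ± 0.22 (0.70-fold to 1.26-fold), Il10, an anti-inflammatory cytokine gene, at 0.31 ± 0.28 (0.85-fold to 1.81-fold) and Ptgs2, which encodes cyclooxygenase 2, at -0.05 ± 0.22 (log2 interval -0.48 to 0.38). Nfkbia, the NF-κB inhibitor that NF-κB itself induces, stood at 0.19 ± 0.10. Nos2, inducible nitric oxide synthase, did not pass the filter on low counts (37 over Baflo, 70 over DMSO and 22 over NoStim libraries). Because the filter took all groups together, some tested genes had fewer, such as Gdf15 with 33 over Baflo and 17 over DMSO libraries.

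Interleukin-1 and inflammasome genes numbered 8 tested of 12, 3 of them higher at an unadjusted p under 0.05 and 0 past the threshold, with a median log2 fold change of 0.18. Over all tested genes 3.93% were higher at such a p. Beside Il1b these were Casp1, the protease that matures interleukin-1β, at 0.36 ± 0.15, and Pycard, the inflammasome adaptor, at 0.32 ± 0.15. The receptor antagonist gene Il1rn stood at 0.01 ± 0.15 and the sensor gene Nlrp3 at 0.11 ± 0.15. All 8 intervals lay inside 2-fold.

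Interferon response genes showed no shared shift after Baflo. Of 59 listed genes 57 were tested and 0 passed, the median log2 fold change was 0.00, and 29 of 57 lay above 0. An unadjusted p under 0.05 was found for 2 members, and for 7.52% of all tested genes. Rsad2, which encodes the antiviral protein viperin, ranged from 15941 to 21621 CPM in Baflo libraries (median 18616) and from 16743 to 21034 in DMSO libraries (median 19392). Its log2 fold change was 0.00 ± 0.18, with an interval from 0.78-fold to 1.27-fold. Ifit1, an inhibitor of viral RNA translation, stood at 0.00 ± 0.14 (0.82-fold to 1.22-fold). Cxcl10, a T cell attractant, stood at 0.19 ± 0.20 (log2 interval -0.20 to 0.58). Members of smallest p were the transcription factor gene Irf1, at 0.37 ± 0.15, and Irgm1, an interferon-inducible GTPase, at 0.29 ± 0.14. A 2-fold change lay outside the interval of 55 members, all but Sp100 and Nlrc5.

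Lysosomal genes were close to their DMSO level at the median, and V-ATPase subunits lay slightly to the higher side. Of 42 genes of lysosomal enzymes and membrane proteins 36 were tested and 0 passed in the fit of all groups. At an unadjusted p under 0.05, 3 were higher and 2 lower, where 3.93% of all tested genes were higher and 3.59% lower. The lysosomal list had a median log2 fold change of 0.05, and a 2-fold change was outside the interval of 34 members, all but Cd68 and Naglu. Lamp1, a main protein of the lysosomal membrane, ranged from 333 to 445 CPM in Baflo libraries (median 395) and from 261 to 411 in DMSO libraries (median 365). It stood at 0.12 ± 0.11 (0.93-fold to 1.27-fold), and Ctsd, the aspartic protease cathepsin D, at 0.10 ± 0.10 (0.94-fold to 1.23-fold). Lipa, the acid lipase that splits cholesteryl esters, had a median of 475 CPM in Baflo (339 to 618) and 613 in DMSO libraries (474 to 750). It had the smallest p of the list, at -0.35 ± 0.11 (edgeR adjusted p = 0.406). Ppt1, a thioesterase, stood at -0.42 ± 0.19. The fit with plate and letter as a block called Ppt1 lower (edgeR adjusted p = 0.027).

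V-ATPase subunits numbered 16 tested of 17, with a median log2 fold change of 0.10, 2 higher at an unadjusted p under 0.05 and 0 past the threshold. A share of 3.93% of all tested genes was higher at such a p. Summed over the 17 listed genes, the level ranged from 2658 to 3149 CPM in Baflo libraries (median 2953). In DMSO libraries the sum ranged from 2572 to 2721 CPM (median 2655), so the groups overlapped. Atp6v1a, the catalytic subunit, ranged from 1099 to 1516 CPM in Baflo libraries (median 1268) and from 929 to 1235 in DMSO libraries (median 1088). Its log2 fold change was 0.22 ± 0.10, and that of Atp6v1c1 was 0.43 ± 0.19. Atp6v0c, of the proton-carrying ring, stood at 0.23 ± 0.14 (0.96-fold to 1.43-fold). All 16 intervals lay inside 2-fold, 9 of them inside 1.5-fold.

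Autophagy genes numbered 18 tested of 27, with a median of -0.03 and 0 past the threshold. Sqstm1, the cargo receptor p62, ranged from 840 to 1103 CPM in Baflo libraries (median 1020) and from 808 to 1327 in DMSO libraries (median 1209), a log2 fold change of -0.17 ± 0.15 (0.72-fold to 1.09-fold). Map1lc3b, which encodes the autophagosome protein LC3B, stood at 0.35 ± 0.17, Becn1, of the kinase complex that starts autophagosomes, at -0.82 ± 0.36 and Atg3, the enzyme that conjugates LC3, at 0.64 ± 0.31. Becn1 averaged only 15.4 CPM in Baflo and 28.4 in DMSO libraries, and intervals of 5 members, Gabarapl1, Nbr1, Optn, Atg3 and Becn1, reached past 2-fold. The folliculin, Rag and mTORC1 genes, which report amino acid supply at the lysosome, had 13 of 17 tested, 0 past the threshold, 0 at an unadjusted p under 0.05 and a median of 0.00.

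**Figure D3:**
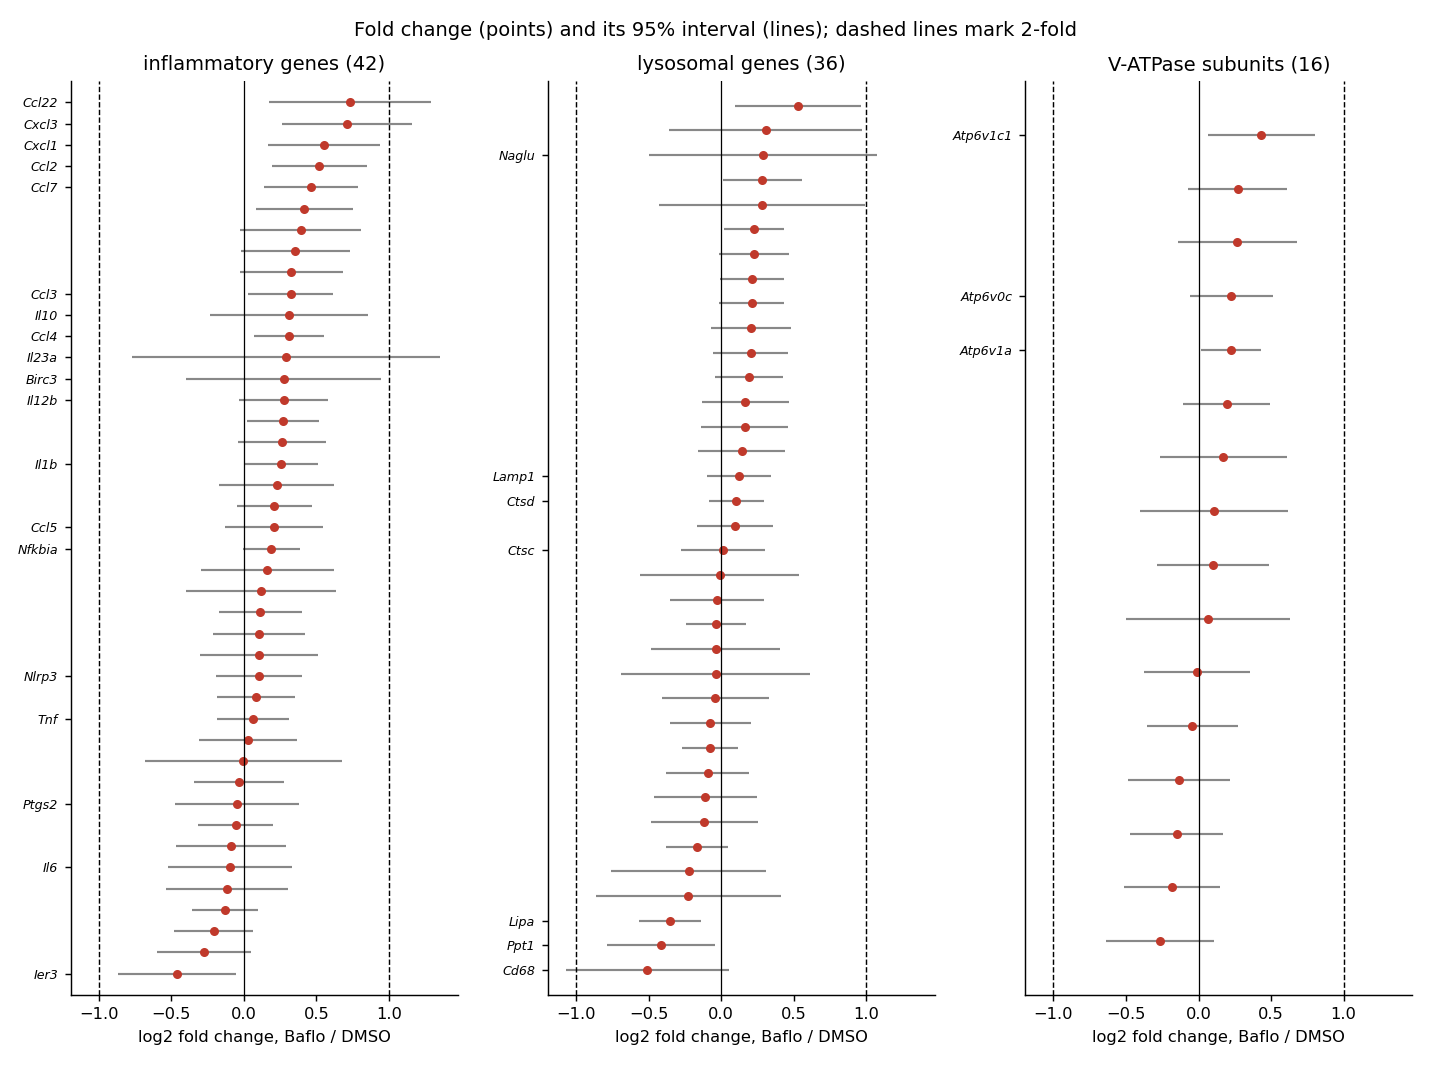
Log2 fold change of Baflo over DMSO (points, horizontal axis) with its 95% interval (lines) for every tested member of 3 lists, ordered by fold change, with names for genes given in the text. Dashed lines mark 2-fold; the intervals reach past it for 3 of 42 inflammatory genes, 2 of 36 lysosomal genes and 0 of 16 V-ATPase subunits.

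Lists of metabolism and stress gave 0 genes past the threshold in the fit of all groups. Of the sterol synthesis and uptake genes, targets of SREBP2, only 4 of 19 passed the filter on low counts, with a median of -0.27. Insig1, which restrains SREBP processing, stood at -0.21 ± 0.19. The 4 tested sterol efflux genes had a median of -0.06. Abca1, which exports cholesterol, stood at 0.00 ± 0.23. In the iron list (8 tested, median 0.10), Hmox1, the haem-degrading oxygenase, had a median of 154 CPM in Baflo libraries (93.2 to 237) and 105 in DMSO libraries (85.0 to 149), a log2 fold change of 0.40 ± 0.18. Fth1, the ferritin heavy chain, stood at 0.12 ± 0.10. Hypoxia and glycolysis genes (16 tested) had a median of 0.11, with the glycolytic enzyme gene Pgam1 at 0.53 ± 0.18.

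NRF2 targets (14 tested, median -0.06) held both signs: Prdx1, a peroxiredoxin, stood at 0.42 ± 0.13 and Txnrd1, thioredoxin reductase, at -0.34 ± 0.13. With plate and letter as a block, Prdx1 was called higher (edgeR adjusted p = 0.017). ATF4 targets (12 tested) had a median of 0.04, with Atf3 at 0.01 ± 0.15 and 0 members at an unadjusted p under 0.05. Gdf15, a stress-induced cytokine gene of about 10 CPM, stood at 0.82 ± 0.49 with an interval from 0.91-fold to 3.43-fold, so an increase of up to 3.43-fold was not excluded for it. Unfolded protein response genes (24 tested) had a median of -0.09. The endoplasmic reticulum chaperone gene Canx stood at -0.39 ± 0.15 and Hyou1 at -0.41 ± 0.17, while Hspa5, which encodes the chaperone BiP, stood at 0.07 ± 0.11. Heat shock genes (16 tested) had a median of 0.08 and 0 members at an unadjusted p under 0.05.

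Ribosomal protein genes, a list of 24 with all tested, had a median log2 fold change of 0.15. Of these 21 lay above 0 and 4 had an unadjusted p under 0.05, all higher, among them Rpl11, Rpl5 and Rps20. Over all tested genes 3.93% were higher at such a p. So were 34 of 373 genes from 300 to 1000 CPM and 13 of 78 from 1000 CPM upwards. In ZVAD against DMSO, which shares the DMSO wells, 21 of the 24 ribosomal protein genes also lay above 0, with a median of 0.08. The 24 intervals lay inside 2-fold, 23 of them inside 1.5-fold. Macrophage identity genes (24 tested of 27) had a median of 0.06 and all intervals inside 2-fold. Csf1r stood at -0.14 ± 0.11, and the integrin gene Itgam at 0.39 ± 0.17. Lyz2, a lysozyme gene, had a median of 261 CPM in Baflo libraries (207 to 501) and 372 in DMSO libraries (231 to 431), a log2 fold change of -0.33 ± 0.18.

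The LPS response in Baflo wells was then measured against NoStim wells, beside the response in DMSO wells. Both responses share the NoStim libraries, so their values are set side by side and no likeness is computed. The test between Baflo and DMSO wells given above is the test of their difference. With Baflo, 930 genes rose (18.7% of those tested) and 759 fell (15.3%) in edgeR. With DMSO, 968 rose (19.5%) and 822 fell (16.6%). Scaling the libraries by RLE factors in place of TMM moved the median log2 fold change of all genes from -0.06 to -0.19 with Baflo and from -0.04 to -0.19 with DMSO. The calls then split into 791 higher and 1180 lower with Baflo and 778 higher and 1248 lower with DMSO, so the balance of rises and falls depends on the scaling.

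Inflammatory genes rose in 41 of 42 cases with Baflo, at a median log2 fold change of 2.85, and in 40 of 42 with DMSO, at 2.89. Il23a did not pass in either, and Birc3 did not pass with DMSO. Tnf rose by 3.04 ± 0.14 with Baflo and by 2.98 ± 0.14 with DMSO on the log2 scale, from a NoStim mean of 142 CPM. Il1b rose by 4.27 ± 0.15 and 4.02 ± 0.15, and Ccl5, a chemokine gene under both branches of the pathway, by 5.08 and 4.87. Interferon response genes rose in 53 of 57 cases with Baflo (median 2.09) and in 55 of 57 with DMSO (median 2.04). Rsad2 rose by 4.16 with Baflo and 4.17 with DMSO, and Ifit1 by 3.03 in each. These counts were 41 and 40 for inflammatory and 52 and 54 for interferon response genes under RLE scaling.

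Some lysosomal and macrophage identity genes were among those that fell. Over all tested genes 15.3% fell with Baflo and 16.6% with DMSO, and 18.7% and 19.5% rose. Under RLE scaling the background was higher for falls: 1180 of all 4963 genes fell with Baflo and 1248 with DMSO, while 791 and 778 rose. Of the 36 tested lysosomal genes 15 fell and 1, Ctsc, rose with Baflo (median -0.32). With DMSO 16 fell and 1, again Ctsc, rose (median -0.33). Under RLE scaling 22 and 26 fell. Of the 24 tested macrophage identity genes 9 fell and 3 rose with Baflo, and 10 fell and 2 rose with DMSO. Under RLE scaling 14 of them fell with Baflo and 12 with DMSO. Cx3cr1, the fractalkine receptor, fell by 3.03 with Baflo and 2.89 with DMSO, and Csf1r by 0.51 and 0.36. Cd14, the LPS co-receptor, rose by 1.39 and 1.19. The sterol exporter gene Abcg1 fell by 1.07 and 1.21. Of 18 autophagy genes 7 fell and 4 rose with Baflo (median -0.48), and 6 fell and 3 rose with DMSO (median -0.50), or 10 and 3 in each under RLE scaling. The cargo receptor gene Sqstm1 was among those that rose, by 1.003 and 1.175. The spread of list medians between the 2 responses was widest for the sterol synthesis genes, -0.03 with Baflo and 0.32 with DMSO, a list with only 4 tested members. V-ATPase subunits had medians of -0.13 and -0.32 and ribosomal protein genes of -0.01 and -0.16.

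**Figure D4:**
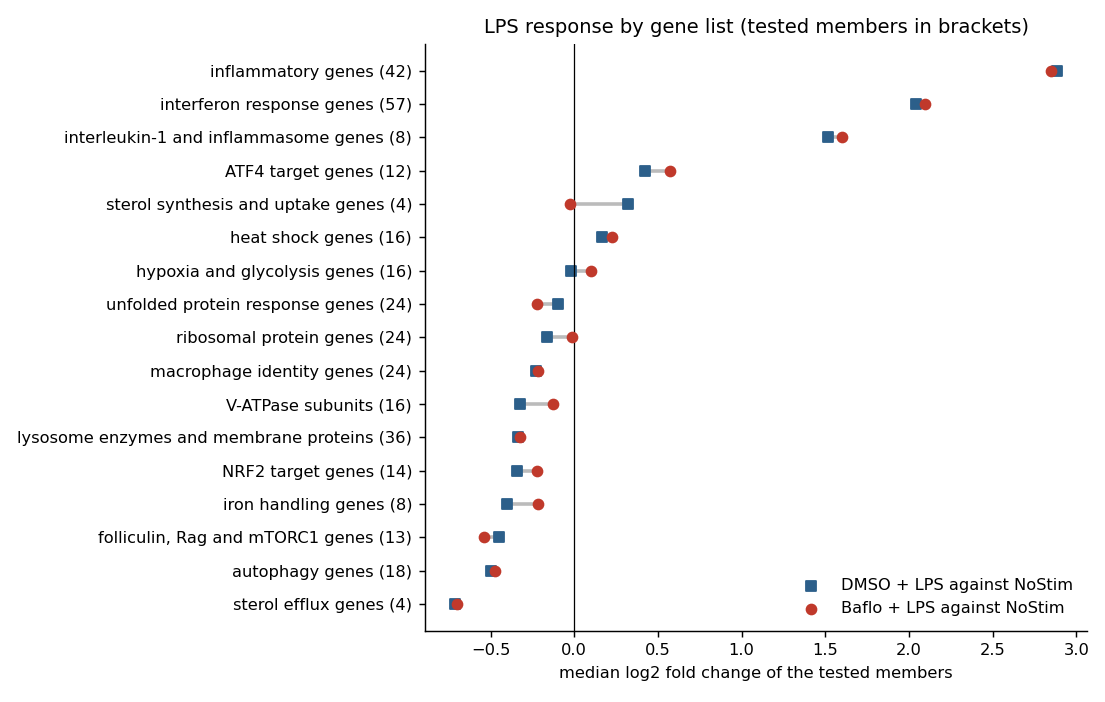
Median log2 fold change against NoStim (horizontal axis) of the tested members of each gene list (number in brackets) in Baflo with LPS (circles) and DMSO with LPS (squares). Inflammatory genes sit at 2.85 and 2.89 and interferon response genes at 2.09 and 2.04; both responses use the same NoStim libraries.

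Against ZVAD with LPS, a comparison that uses no DMSO well, Baflo gave 0 genes past the threshold in edgeR, 0%, with a smallest adjusted p of 0.898 and 265 genes at an unadjusted p under 0.05. DESeq2 and limma-voom gave 0 as well. The inflammatory list had a median of 0.17 in Baflo against ZVAD wells, the lysosomal list 0.11, the ribosomal protein list 0.08 and the interferon response list 0.04. The log2 fold change of Baflo over ZVAD was 0.14 for Spp1, 0.61 for Phxr4 and -0.11 for Luzp1. ZVAD against DMSO also gave 0 genes, 0% (edgeR, smallest adjusted p = 0.414, 176 at an unadjusted p under 0.05; 0 in DESeq2 and limma-voom). The inflammatory list had a median of 0.01 in that comparison. The log2 fold change of ZVAD over DMSO was 0.37 for Spp1, 0.48 for Phxr4 and -0.62 for Luzp1. Every ranked gene had the same sign in ZVAD against DMSO as in Baflo against DMSO. Both of these comparisons use the same DMSO wells, and the part of those wells in the ranked differences was not tested.

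The differences between Baflo and DMSO varied with transcript length. Of the 4963 genes 4743 matched a GENCODE M21 (mm10) gene, and these were split into 5 equal bins by the length of their longest transcript. The median log2 fold change was 0.09 in the bin of shortest transcripts (96 to 1983 bases) and then 0.05, -0.01 and -0.06, down to -0.08 in the bin of longest transcripts (5626 bases and more). Plate 1 alone gave 0.12 in the shortest and -0.10 in the longest bin, plate 2 alone 0.08 and -0.04. The comparisons with ZVAD had the same order of bins: the median went from 0.05 to -0.04 in Baflo against ZVAD and from 0.05 to -0.04 in ZVAD against DMSO, each sharing wells with the comparison above. At an unadjusted p under 0.05 the shortest bin held 74 higher and 13 lower genes, and the longest 12 higher and 57 lower. Across genes the Spearman correlation of length with fold change was -0.24, and that of GC content 0.07. The ranked genes named above had longest transcripts of 1391 to 2804 bases on the higher side, and on the lower side of 5026 to 9661 bases.

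Each library was given a short-minus-long index, the mean log2 level of the shortest bin minus that of the longest. It was 0.19 ± 0.25 (SD, n = 8) in Baflo libraries, from -0.09 to 0.54, and 0.02 ± 0.15 in DMSO libraries, from -0.11 to 0.36, so the groups overlapped. Over the 96 libraries its deviations from the mean of each group and plate correlated at a Pearson r of -0.84 with those of the Rn45s share, given as a description, since both come from the same counts. The inflammatory list has a median length of 2343 bases and the ribosomal protein list of 1308.5, against 3582 over all matched genes and 3257 for the interferon response list. For the 41 inflammatory genes with a known length, the median log2 fold change was 0.28 for the 16 members in the shortest bin, 0.24 for the next 10, 0.11 for the next 7, and -0.03 and -0.09 for the 5 and 3 members in the longest bins. With the index as a covariate, a fit added after seeing the data, the median of the inflammatory list was 0.13 and that of the ribosomal protein list 0.02. In that fit the index came from the same counts, with 16 inflammatory genes in its shortest bin, so part of this lowering may be built in. That fit called 0 genes in edgeR (smallest adjusted p = 0.389), with Spp1 at 0.33, Tagln2 at 0.34 and Luzp1 at -0.55. The part of transcript length, depth or RNA quality in these differences was not tested further.

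**Figure D5:**
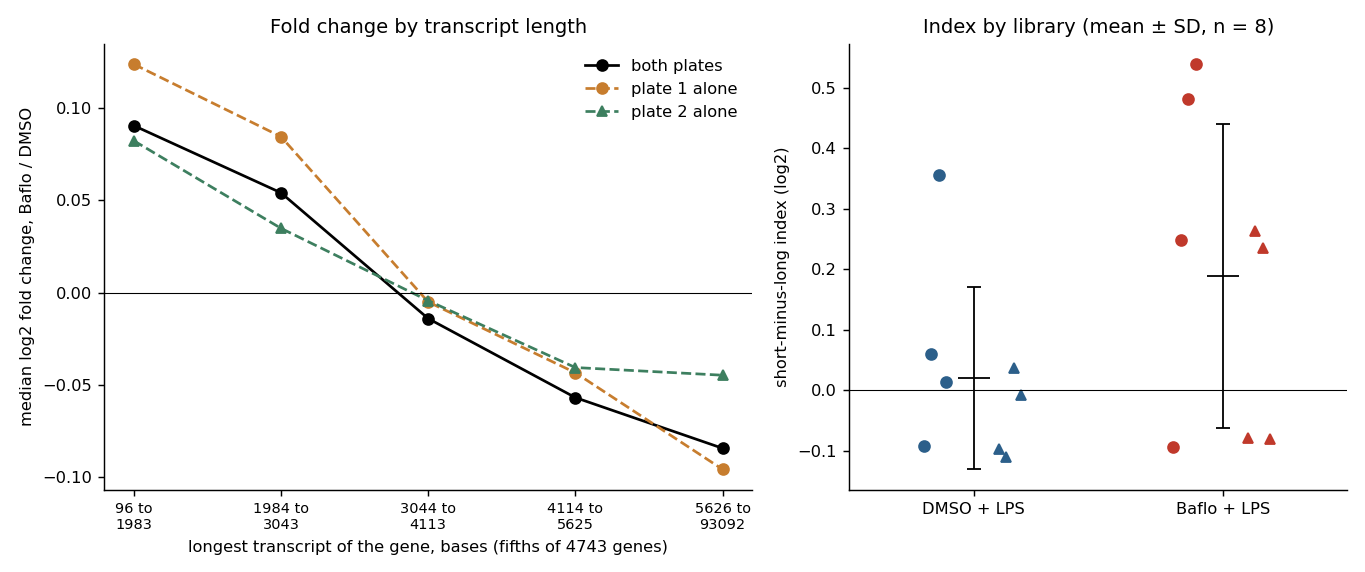
Left, median log2 fold change of Baflo over DMSO (vertical axis) in 5 bins of genes by longest transcript (horizontal axis, bases), for both plates and each plate alone; the median goes from 0.09 in the shortest to -0.08 in the longest bin. Right, short-minus-long index of each library (points; circles plate 1, triangles plate 2) with mean ± SD (bars, n = 8); the 2 groups overlap.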

How the data were processed

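RNA was turned into 3′ end libraries by a SCRB-Seq protocol with modifications and Nextera reagents, per the labels' protocols. The authors deposited raw counts per gene symbol for 96 libraries, after alignment to mm10 with BWA, per the submitters' processing notes. BWA's version, the annotation, the strand setting and any collapse of PCR copies are not given in these sources, so counting error may be understated. Values were whole numbers with a different total in each library. No mitochondrially encoded gene is listed, so a planned comparison of their share was not run.

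Groups were read from the labels. edgeR 4.0.16 (R 4.3.3) was fitted to all 96 libraries at once, with terms for group and plate, after filterByExpr (minimum count 10, 4963 genes) and TMM scaling. Its robust quasi-likelihood F test was two-sided, with Benjamini-Hochberg adjustment over the tested genes and a threshold of 0.05. CPM are scaled by TMM, SE are those of the fit, and 95% intervals are Wald intervals with the fitted quasi-dispersion. List levels are means of log2(CPM + 1). The procedure was tested on simulated data. Simulated libraries were drawn independently with the fitted dispersions, so related wells and the choice of fit were not covered. Library measures were compared by exact permutation (scipy 1.17.1). Alternatives used limma 3.58.1, DESeq2 1.42.0, RLE factors, other filters, each plate, summed wells, a replicate block and left-out libraries. The index covariate was chosen after seeing the data.

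Deviations of Baflo and DMSO wells of the same plate and letter correlated above 0.1 in 4 of 8 pairs, so letters were not taken to pair wells. The comparison, the 25 lists (470 entries) and a panel of 30 genes were chosen with earlier results of these data known. Genes named were the panel, list members by smallest p or highest level, and 6 higher and 6 lower genes ranked by unadjusted p, which had to average at least 30 CPM in one group and keep their sign across plates. Dedd, genes called only under an alternative, and some further list members were named after their values were seen. Some genes that the rule names are not reported here. Coordinates and lengths are from GENCODE M21. Plots used matplotlib 3.10.9 (Python 3.11.15).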

Additional observations from a re-analysis of the deposited data

Results flagged for a closer look

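Levels of 39 genes and 3 library measures were checked in the 8 Baflo and the 8 DMSO libraries, 84 groups of values, for a single library far from the other 7. In all, 8 stood apart, where normal and independent values would give about 1 in 20, or 4.2. The genes share libraries and some were ranked on these data, so that rate is a rough guide only. Of these, 3 were in the Baflo library of plate 1, well E: Flcn, which encodes folliculin, at 35.5 CPM (3.05 to 12.3 in the others), Insig1 at 182 CPM (75.1 to 115.0) and Lyz2 at 501.5 CPM (207 to 314). Without that library the log2 fold change of Flcn was -0.06 in place of 0.38, and that of Insig1 was -0.36 in place of -0.21. A further 4 were in the DMSO library of plate 1, well G: an Rn45s share of 9.43% (17.8% to 23.7% in the others), Il12b at 364.7 CPM (234.5 to 286), Atf3 at 308 CPM (186 to 243) and Ddit3, a stress transcription factor gene, at 35.4 CPM (5.33 to 17.4). The DMSO library of plate 2, well H, had Atp6v0d2, a V-ATPase subunit gene, at 75.4 CPM (29.6 to 42.6). Without any one of these 3 libraries the count of genes past the threshold between Baflo and DMSO stayed at 0.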

How the results depend on the processing

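Between Baflo and DMSO the count of 0 genes held under RLE scaling, no plate term, a 20 CPM filter, each plate alone, summed wells, limma-voom, Rn45s as a covariate or left out, and leaving out each library or letter (0 to 0). It became 3 with no filter, 8 in a fit of the compared groups alone, 23 with the replicate block and 2 in DESeq2; the cause was not tested. In the replicate block Baflo against ZVAD and ZVAD against DMSO gave 0. No block was possible against NoStim, whose letters are not shared. Genes with an interval inside 2-fold numbered 2739 on plate 1 alone and 2769 on plate 2 alone, which have fewer libraries, and 3587 to 4118 with a library or letter left out. Genes past the threshold against NoStim numbered 1283 with Baflo and 1513 with DMSO on plate 1 alone, and 1027 and 885 on plate 2 alone, so the order of the groups differed by plate, and with a letter left out 1432 to 1592 and 1456 to 1681. Baflo against ZVAD with no filter gave 1 gene. The effect by plate gave 0 with each letter left out. The median of the inflammatory list stayed above 0 in all settings, from 0.13 (index covariate) to 0.26 (without letter E). The fold changes of 39 named genes gave 1326 values in 34 settings, and 25 of the genes kept their sign in all of them. Depth limits what can be said of genes below 50 CPM.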
